A study of Mus musculus with 12 samples.

Results

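The genes described here are 10 transcription factors and chromatin regulators of photoreceptor commitment and of rod and cone fate, Otx2, Prdm1, Rorb, Crx, Mef2d, Nrl, Nr2e3, Samd7, Thrb and Rxrg. They were taken by gene symbol from tables of 53090 genes, each symbol matched 1 row, and all 10 passed the filter on low counts that left 18638 genes for testing. The tables hold mouse retinal RNA recovered by pulling down ribosomes through an HA tag, from C57BL/6 mice at postnatal day 3 (P3, 6 libraries) and postnatal day 9 (P9, 6 libraries). All 12 libraries come from mice given tamoxifen on postnatal days 1 and 2, and their cell type is labelled as retinal pericytes, which wrap the capillaries. Which promoter drives the tag is not stated in these sources, and input RNA from before the pulldown was not analysed here. Whether each library comes from its own mouse is not stated either, so the p-values cover the spread between libraries, part of which may be technical.

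In the mouse retina, rods are born around birth and cones before it, and rods go on to mature after birth. OTX2 commits a newborn cell to the photoreceptor and bipolar lineages, PRDM1 keeps such cells from the bipolar fate, and CRX, a homeodomain relative of OTX2, switches on photoreceptor genes. RORB acts before NRL, a leucine zipper factor that specifies rods, and NRL turns on NR2E3, a nuclear receptor that represses cone genes in rods. The thyroid hormone receptor THRB and its partner RXRG act in cones, where they govern the choice of cone opsin. MEF2D works with CRX at photoreceptor enhancers, and SAMD7 belongs to a Polycomb complex that silences nonrod genes in rods.

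Library totals ran from about 26840000 to 37776000 expected counts, and a level of 1 CPM (reads per 1000000 of the library) rested on 25.8 to 38.5 counts. CPM values below were scaled by TMM, a method that corrects for library composition, and they are not divided by gene length, so levels are compared between ages and not between genes. Between the ages 4868 of 18638 genes rose and 4779 fell at an adjusted p under 0.05, which is 51.8% of them. The pericyte markers were present, with none of 14 at a count of 0 in any library and a summed level of 362 to 1350 CPM at P3 and 2852 to 6415 CPM at P9. Of these 14 markers 13 rose. Counts of rising or falling markers, here and below, stand against 26.1% of all tested genes that rose and 25.6% that fell. Rod genes were present at both ages too. The summed level of 26 of them was 1571 to 3669 CPM at P3 and 11499 to 23866 CPM at P9, and that of 15 progenitor markers was 3181 to 4120 CPM at P3 and 1513 to 1848 CPM at P9. In bulk RNA of this kind, fewer cells of a type and less RNA per cell cannot be told apart. A different share of RNA from untagged cells in the pulldown cannot be told apart from either of them.

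All 10 factors changed between the ages, 6 upward (Crx, Mef2d, Nrl, Nr2e3, Samd7 and Thrb) and 4 downward (Otx2, Prdm1, Rorb and Rxrg). The background is high: 51.8% of all tested genes passed the same threshold, 26.1% as higher and 25.6% as lower at P9, and 63.2% passed among genes averaging 10 CPM or more, as all 10 factors did. For 9 of the 10 the 6 values of P3 did not overlap with the 6 values of P9, against 31.7% of all tested genes and 41.3% of those averaging 10 CPM or more. The exception was Mef2d. The median log2 fold change of the factors, P9 over P3, was 0.58, and that of all tested genes was -0.0018. Of the factors that fell, Otx2, Prdm1 and Rorb act early in photoreceptor commitment and Rxrg acts in cones. This grouping was made after the directions were seen and was not tested.

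**Figure D1:**
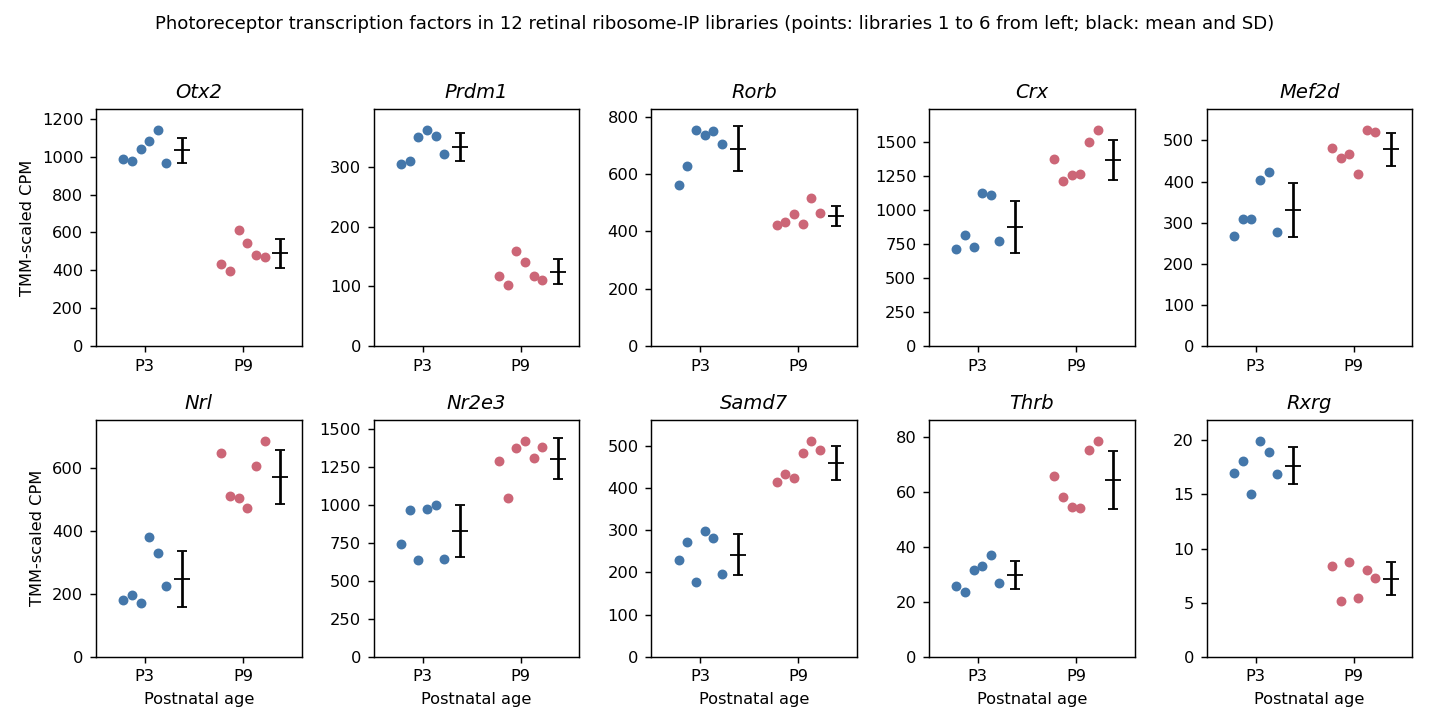
Level of each of the 10 factors in every library, as TMM-scaled CPM on an axis from 0, at P3 (blue, 6 libraries) and P9 (red, 6 libraries), with the mean and SD in black. Otx2, Prdm1, Rorb and Rxrg lie lower at P9 in every library, and the other factors lie higher at P9, with overlap between the ages only for Mef2d.

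Otx2 (ENSMUSG00000021848.15; chromosome 14, 48656781 to 48667644 in GRCm38.p6), which opens the photoreceptor programme, stood between 969 and 1139 CPM at P3 (median 1015) and between 398 and 611 CPM at P9 (median 476). Every P9 library lay below every P3 library. The mean of 1033 ± 68.4 CPM at P3 (SD, n = 6) was followed by 490 ± 76.9 CPM at P9 (SD, n = 6), 2.11-fold lower (log2 fold change -1.08 ± 0.10, SE; edgeR adjusted p = 7.00e-07). Bipolar cells and pigment epithelium also express Otx2. All 12 bipolar markers rose in these libraries, with a summed level of 89.1 to 117 CPM at P3 and 1148 to 2053 CPM at P9. Of 10 pigment epithelium markers 4 rose and 0 fell, with a summed level of 40.3 to 92.9 CPM at P3 and 74.0 to 145 CPM at P9. Rpe65 and Best1 were at a count of 0 in some P3 library. The part of these cells in the Otx2 values was not tested.

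Prdm1 (ENSMUSG00000038151.13; chromosome 10, 44437174 to 44528558), the zinc finger repressor also called Blimp1, fell most among the factors. It ran from 305 to 362 CPM at P3 (median 337) and from 103 to 159 CPM at P9 (median 118). The ages did not overlap, and the SD at P3 was 7.22% of the mean. The means were 334 ± 24.1 and 125 ± 21.0 CPM, 2.67-fold lower at P9 (log2 fold change -1.42 ± 0.10, SE; edgeR adjusted p = 8.42e-08).

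Rorb (ENSMUSG00000036192.15; chromosome 19, 18930609 to 19111196), an orphan nuclear receptor needed for rod formation, fell less. Its levels were 561 to 752 CPM at P3 (median 720) and 423 to 517 CPM at P9 (median 447), again with no overlap. The means were 688 ± 78.1 and 454 ± 35.0 CPM, 1.52-fold lower at P9 (log2 fold change -0.60 ± 0.087, SE; edgeR adjusted p = 4.68e-05). Amacrine and horizontal cells express Rorb as well. Their summed markers were 473 to 538 and 587 to 803 CPM at P3 and 412 to 499.9 and 857 to 1042 CPM at P9, respectively, and their part in the Rorb values was not tested. RefSeq lists 2 start sites for Rorb, and the gene total does not separate their products. Of 8 amacrine markers 3 rose and 4 fell, and Ptf1a was at a count of 0 in some P9 library. Of 7 horizontal cell markers 4 rose and 2 fell, and none was at 0 in any library. Most of the horizontal sum came from Prox1, which rose from a mean of 180 to 426 CPM, and Tfap2b, which fell from 348 to 255 CPM. The other marker that fell was Onecut2, from 33.8 to 14.9 CPM.

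Crx (ENSMUSG00000041578.15; chromosome 7, 15865947 to 15879955), the cone-rod homeobox gene, rose while its relative Otx2 fell. It lay between 710 and 1126 CPM at P3 (median 795) and between 1216 and 1586 CPM at P9 (median 1322). P3 replicates 4 and 5, at 1126 and 1110 CPM, were nearest to the P9 libraries, and the other P3 libraries did not exceed 819 CPM. The means were 877 ± 190 and 1368 ± 149 CPM, 1.56-fold higher at P9 (log2 fold change 0.64 ± 0.13, SE; edgeR adjusted p = 0.00074). When P3 replicates 4 and 5 were left out, an alternative added once the values were known, the log2 fold change of Crx was 0.86. The summed bipolar markers rose as well, from 89.1 to 117 CPM at P3 to 1148 to 2053 CPM at P9. The part of bipolar cells in the Crx values, and in the ratios to Crx given below, was not tested.

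Mef2d (ENSMUSG00000001419.17; chromosome 3, 88141941 to 88172091), a MADS-box factor made in many cell types, rose least. It ran from 268 to 422 CPM at P3 (median 309) and from 419 to 525 CPM at P9 (median 474). The ages overlapped through P3 replicate 5 at 422 CPM and P9 replicate 4 at 419 CPM. The means were 332 ± 65.5 and 478 ± 40.4 CPM, 1.44-fold higher at P9 (log2 fold change 0.53 ± 0.12, SE; edgeR adjusted p = 0.00147). The tables count a gene as a whole, so the muscle-type and neural isoforms of Mef2d are not separated.

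The start-site windows of these genes were searched for TAATCC, the core letters bound by CRX and OTX2, on both strands. RefSeq promoters on GRCm38.p6 were matched by symbol for all 10 genes, with 16 start sites in all, and the 250 bases before each start were used. TAATCC or its reverse complement GGATTA was found at 4 of the 16 start sites, of 4 genes (Otx2, Crx, Thrb and Samd7), and in 6.25% of all 32851 start-site windows of this length. The Crx window held 2 matches, and 2 or more stood in 0.295% of all windows. The windows of Crx and Samd7, 2 factors that rose, are shown with those of Otx2 and Rorb, 2 that fell, since they lie outside the annotated span of their gene. The window of 1 Rxrg start site lies outside its gene as well, holds no match and is not shown. They are written 5′ to 3′ on the strand of the gene with the motif letters in capitals.
Crx, chr7:15879956-15880205, minus strand: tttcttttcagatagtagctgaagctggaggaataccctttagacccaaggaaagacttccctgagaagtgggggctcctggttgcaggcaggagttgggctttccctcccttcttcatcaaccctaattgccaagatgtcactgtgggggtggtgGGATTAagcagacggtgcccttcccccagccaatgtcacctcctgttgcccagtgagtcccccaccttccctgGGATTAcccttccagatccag
Samd7, chr3:30746043-30746292, plus strand: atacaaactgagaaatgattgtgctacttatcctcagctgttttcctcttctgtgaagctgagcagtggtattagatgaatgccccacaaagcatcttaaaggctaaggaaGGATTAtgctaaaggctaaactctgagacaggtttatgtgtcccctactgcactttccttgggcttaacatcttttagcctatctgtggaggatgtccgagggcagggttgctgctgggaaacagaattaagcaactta
Otx2, chr14:48667645-48667894, minus strand: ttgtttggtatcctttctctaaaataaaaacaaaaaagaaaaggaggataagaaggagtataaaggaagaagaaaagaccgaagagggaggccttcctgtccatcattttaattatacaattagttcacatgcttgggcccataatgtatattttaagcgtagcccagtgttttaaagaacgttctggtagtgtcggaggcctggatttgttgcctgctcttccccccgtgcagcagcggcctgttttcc
Rorb, chr19:19111197-19111446, minus strand: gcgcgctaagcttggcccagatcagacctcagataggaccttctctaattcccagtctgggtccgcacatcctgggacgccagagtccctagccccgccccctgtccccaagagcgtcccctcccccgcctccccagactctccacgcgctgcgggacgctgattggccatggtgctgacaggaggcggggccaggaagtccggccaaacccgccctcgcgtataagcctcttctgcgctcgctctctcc
In Crx the matches begin at positions -94 and -21 and in Samd7 at -139, where -1 is the base before the start. The Otx2 match lies before another of its 4 start sites. The letters TGCTGA, which make up each arm of the NRL response element, were searched for in the same way and found at 3 of the 16 start sites (Otx2, Rorb and Mef2d) and in 16.1% of all windows. The nuclear receptor core motif AGGTCA was found at 2 (Thrb and Rxrg) and in 14.0% of all windows. These are matches of letters in a short window, and binding was not measured.

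The rod factors rose together. Nrl (ENSMUSG00000040632.15; chromosome 14, 55518978 to 55524981) ran from 170 to 381 CPM at P3 (median 210) and from 472 to 684 CPM at P9 (median 559). P3 replicates 4 and 5 were again the highest of their age, at 381 and 330 CPM, and the ages did not overlap. Its means were 247 ± 87.7 and 571 ± 86.9 CPM, 2.31-fold higher at P9 (log2 fold change 1.21 ± 0.19, SE; edgeR adjusted p = 0.000101), the largest rise among the 10 factors in this fit. Without P3 replicates 4 and 5 the log2 fold change of Nrl was 1.57.

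Nr2e3 (ENSMUSG00000032292.8; chromosome 9, 59942771 to 59960834), which acts with NRL in rods, rose by a smaller amount. Its levels were 640 to 999 CPM at P3 (median 853) and 1047 to 1418 CPM at P9 (median 1342). The P3 libraries fell into a high set of 3, replicates 2, 4 and 5 at 963 to 999 CPM, and a low set of 3 at 640 to 743 CPM. The means were 827 ± 170 and 1303 ± 134 CPM, 1.58-fold higher at P9 (log2 fold change 0.66 ± 0.13, SE; edgeR adjusted p = 0.000577).

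Samd7 (ENSMUSG00000051860.13; chromosome 3, 30746293 to 30767174) stood between 177 and 299 CPM at P3 (median 250) and between 414 and 511 CPM at P9 (median 458). No P3 library reached the P9 range. The means were 242 ± 49.2 and 459 ± 40.4 CPM, 1.89-fold higher at P9 (log2 fold change 0.92 ± 0.12, SE; edgeR adjusted p = 2.10e-05). Its partner gene in the same complex, Samd11, rose less, from 986 ± 140 to 1308 ± 119 CPM, and was chosen after its values were seen.

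The cone factors moved in opposite directions. Thrb (ENSMUSG00000021779.17; chromosome 14, 17659225 to 18040097) ran from 23.8 to 37.2 CPM at P3 (median 29.2) and from 54.2 to 78.6 CPM at P9 (median 62.1). Every P9 library was above every P3 library. The means were 29.7 ± 5.11 and 64.5 ± 10.7 CPM, 2.17-fold higher at P9 (log2 fold change 1.12 ± 0.13, SE; edgeR adjusted p = 4.85e-06). The cone-specific product of Thrb starts at its own promoter, and the gene totals do not separate it from the more widespread product.

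Rxrg (ENSMUSG00000015843.10; chromosome 1, 167598362 to 167639623) was at 15.1 to 19.9 CPM at P3 (median 17.5) and 5.19 to 8.80 CPM at P9 (median 7.64). All P9 libraries lay below all P3 libraries. The means were 17.6 ± 1.72 and 7.20 ± 1.53 CPM, 2.45-fold lower at P9 (log2 fold change -1.29 ± 0.14, SE; edgeR adjusted p = 3.69e-06). With 181 to 671 counts per library, Rxrg had the fewest counts of the 10 factors. Which cells these counts came from was not tested.

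**Figure D2:**
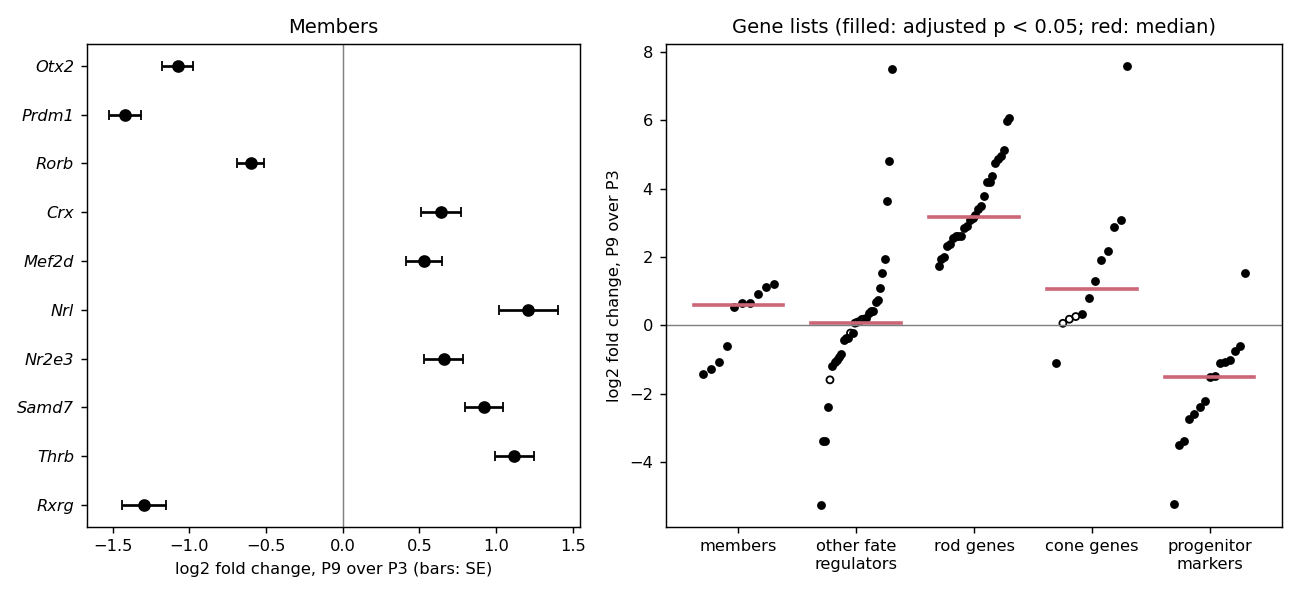
Left, log2 fold change (P9 over P3) of each factor with its SE. Right, log2 fold changes of the genes of 5 lists, filled where the edgeR adjusted p was under 0.05, with the median of each list in red. The factors lie between -1.42 and 1.21, whereas the rod genes lie between 1.73 and 6.07.

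The genes of the cone list, most of them of phototransduction, rose for the most part. Of 12 tested, 8 rose, 1 fell and 3 did not pass, with a median log2 fold change of 1.06. This is 75% called, beside 51.8% of all tested genes and 63.2% of those averaging 10 CPM or more. Arr3, cone arrestin, went from 20.9 ± 4.31 to 154 ± 40.1 CPM, 7.35-fold higher at P9. Pde6c, the catalytic subunit of the cone phosphodiesterase, was 2.48-fold higher and Kcne2, a potassium channel subunit, 8.43-fold higher. The member that fell was Gngt2, the gamma subunit of cone transducin, from 86.5 ± 19.4 to 40.2 ± 7.47 CPM. The cone opsins, which THRB and RXRG regulate and which were picked here after their values were seen, differed in their readings. The green opsin gene Opn1mw held 0 to 8 counts in the P3 libraries, with 3 of the 6 at 0, and 97 to 683 counts in the P9 libraries. The blue opsin gene Opn1sw was at 194 ± 32.4 CPM at P3 and 219 ± 43.8 CPM at P9 (log2 fold change 0.18 ± 0.14, SE; edgeR adjusted p = 0.299), a difference that did not pass.

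To ask whether the factors changed by different amounts, each was set against Crx inside the same library, as a log2 ratio of counts that does not depend on how libraries are scaled. A total of 9 ratios were tested with an exact two-sided permutation test over the 12 libraries (smallest possible p of 0.00216), adjusted over the 9. The ratio of Otx2 to Crx ran from -0.052 to 0.51 at P3 and from -1.75 to -1.04 at P9, a change of -1.75. The Prdm1 ratio changed by -2.09, the Rxrg ratio by -1.98 and the Rorb ratio by -1.26. These 4 factors fell and Crx rose, each with no overlap of the ages, so their ratios had to separate too, and their p adds nothing to the calls already given. Nrl gained on Crx. Its ratio to Crx was -2.11 to -1.56 at P3 and -1.43 to -1.09 at P9, a change of 0.61 with no overlap (adjusted p = 0.0039 by the exact permutation test). The Thrb ratio rose by 0.46 with overlapping ages (adjusted p = 0.00649 by the exact permutation test).

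For the remaining 3 factors the change relative to Crx was small. The ratio of Nr2e3 to Crx was -0.086 ± 0.19 at P3 and -0.069 ± 0.17 at P9, a change of 0.016 (adjusted p = 0.842 by the exact permutation test). Leaving out single libraries moved this change between -0.030 and 0.080. A p that misses the threshold does not show that both genes changed alike. The Samd7 ratio rose by 0.28 (adjusted p = 0.0278 by the exact permutation test), a call lost without P3 replicate 3 or 5 or P9 replicate 4 (adjusted p of 0.0529, 0.0501 and 0.0501), and without P3 replicates 4 and 5 together (0.0804). The Mef2d ratio fell by 0.11 (adjusted p = 0.039 by the exact permutation test), a call lost without P3 replicate 1, 2, 3 or 5 or P9 replicate 1, 4, 5 or 6 (adjusted p between 0.0609 and 0.0877).

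**Figure D3:**
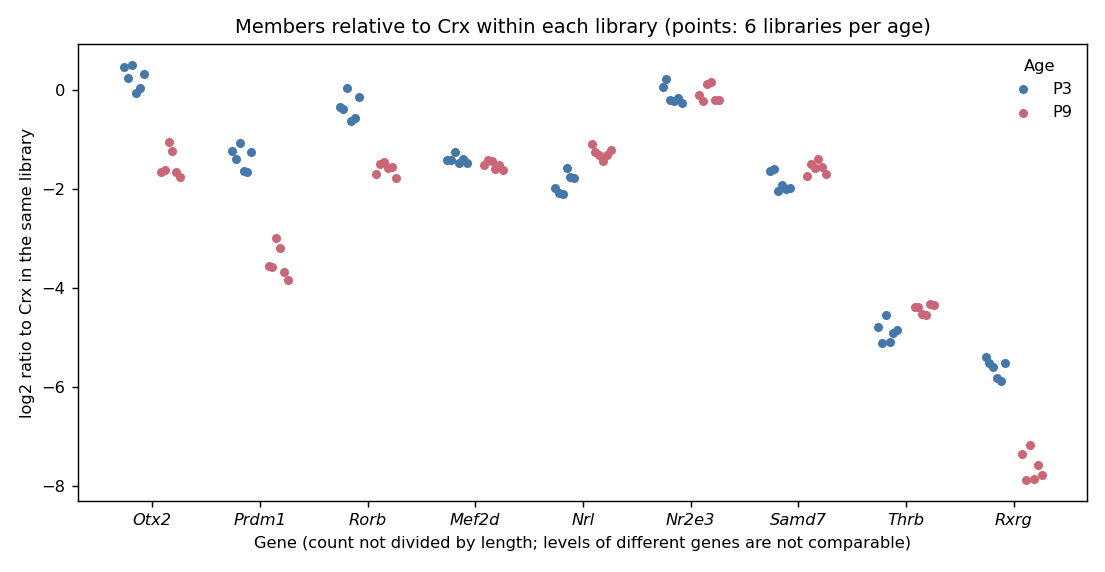
Log2 ratio of each of the other 9 factors to Crx in the same library, 6 libraries per age (P3 blue, P9 red); only differences between the ages can be read, since counts are not divided by gene length. The ratios of Otx2, Prdm1, Rorb and Rxrg lie lower at P9 with no overlap, that of Nrl lies higher, and that of Nr2e3 covers the same range at both ages.

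Other regulators of photoreceptor fate, 32 genes all of which were tested, changed in both directions: 12 rose, 13 fell and 7 did not pass, with a median log2 fold change of 0.075. This is 78.1% called, beside 51.8% of all tested genes. Notch1 and Olig2 were among the falling genes with the smallest adjusted p. Notch1, the receptor that keeps progenitors from the photoreceptor fate, went from 713 ± 74.0 to 136 ± 30.8 CPM. Olig2, found in progenitors about to divide for the last time, fell from 14.4 ± 3.62 to 1.36 ± 0.409 CPM. Notch1 is also a progenitor marker, and 14 of the 15 genes of that list fell.

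Vsx1 and Dio2 were among the rising regulators with the smallest adjusted p. Vsx1, a bipolar homeobox gene, held 0 to 27 counts in the P3 libraries and 1924 to 2829 in the P9 libraries. Dio2, the deiodinase that makes active thyroid hormone, the ligand of THRB, went from 0.557 ± 0.311 to 15.8 ± 6.75 CPM. All 12 bipolar markers, Vsx1 among them, rose, and the part of bipolar cells in these values was not tested.

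Among relatives of the members in the same list, the receptor Rora, a paralogue of Rorb, was at 74.5 ± 9.59 CPM at P3 and 159 ± 25.8 CPM at P9, a rise where Rorb fell. Rxra, a paralogue of Rxrg, was at 51.5 ± 5.76 and 59.3 ± 4.04 CPM (edgeR adjusted p = 0.0472) and Rxrb at 92.7 ± 8.82 and 71.4 ± 5.28 CPM. Thra, the other thyroid hormone receptor, did not pass at 237 ± 24.5 and 269 ± 20.1 CPM (edgeR adjusted p = 0.0787). The Mef2d paralogues Mef2a and Mef2c both rose, Mef2c from 7.60 ± 3.43 to 29.1 ± 7.84 CPM. Rora, Rxra, Rxrb, Thra, Mef2a and Mef2c were singled out after their values were seen.

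The genes that these factors control in rods rose far more than the factors. Of 26 genes of rod phototransduction and outer segments all 26 rose, and in all 26 the ages did not overlap. Of all tested genes 26.1% rose, and 16.3% had every P9 value above every P3 value. The 26 rod genes, like the other lists, were chosen with earlier results of these data known. Their median log2 fold change was 3.18, and the smallest of their changes, 1.73, was above the largest of the factors, 1.21. Slc24a1, the sodium-calcium exchanger of rods, went from 3.70 ± 1.80 to 251 ± 108 CPM. Aipl1, a chaperone of the phosphodiesterase, rose 6.10-fold to 278 ± 87.1 CPM, and Abca4, a retinoid transporter of the outer segment, 7.58-fold to 670 ± 187 CPM. The difference between the factors and the rod genes was not tested.

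Within an age, some factors differed between libraries along with the rod genes. P3 replicates 4 and 5 had the highest summed rod level of their age, 3669 and 3378 CPM against 1571 to 2213 CPM in the other 4, and between them they held the highest P3 value of 9 of the 10 factors. Crx averaged 1118 CPM in these 2 libraries and 757 CPM in the other 4, and Nrl 356 and 193 CPM. Their summed cone genes were not raised, at 1033 and 960 CPM against 961 to 1191 CPM. Their pericyte markers were high, at 1218 and 1350 CPM against 362 to 681 CPM. Their summed progenitor markers were the lowest of P3, at 3181 and 3312 CPM against 3344 to 4120 CPM, and their summed bipolar markers the highest, both at 117 CPM against 89.1 to 98.5 CPM. At P9 the library with the lowest summed rod level, replicate 3 at 11499 CPM, had the highest Otx2 (611 CPM) and Prdm1 (159 CPM) of its age. That library also had the highest summed progenitor level of its age, 1848 CPM against 1513 to 1629 CPM, and the lowest summed bipolar level, 1148 CPM against 1609 to 2053 CPM. P9 replicate 2 held the lowest P9 value of 5 of the 10 factors (Otx2, Prdm1, Crx, Nr2e3 and Rxrg). Its summed pericyte level was the highest of its age, 6415 CPM against 2852 to 4720 CPM. The part of these differences in the results was not tested. Without P3 replicates 4 and 5, 6 of the factors rose and 4 fell as before.

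**Figure D4:**
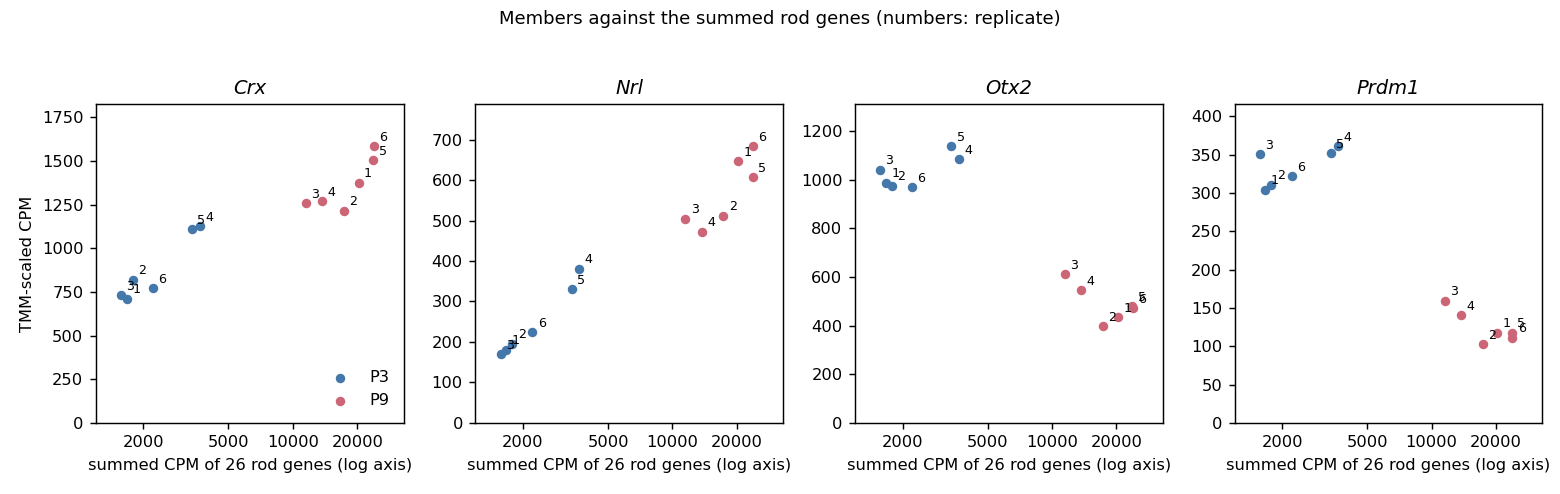
Levels of Crx, Nrl, Otx2 and Prdm1 (CPM, axis from 0) against the summed CPM of 26 rod genes (log axis) in each library, with replicate numbers (P3 blue, P9 red). P3 replicates 4 and 5 stand to the right of the other P3 libraries and have more Crx and Nrl, and at P9 Otx2 and Prdm1 are highest in replicate 3, where the rod sum is lowest.

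Some pairs of factors varied alike from library to library once the mean of each age was taken away. Over the 12 libraries, the Pearson correlation of these deviations of log2 CPM was 0.94 for Crx and Nrl, 0.94 for Crx and Mef2d, 0.93 for Otx2 and Prdm1 and 0.86 for Nr2e3 and Samd7. Without P3 replicates 4 and 5 the values were 0.79, 0.76, 0.94 and 0.77. Of all 45 pairs 44 were above 0, with a median of 0.47, and the lowest was -0.099 for Prdm1 and Thrb. Without P3 replicates 4 and 5 only 31 pairs were above 0 and 14 were below it, the median was 0.19, and the lowest was -0.48 for Nrl and Prdm1. Libraries share depth, scaling and cell make-up, so these values describe the libraries and carry no p.

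Among 10962 genes averaging 10 CPM or more, those closest to each of 4 factors by the same measure were named. For Otx2 they were Hic2 (0.94), Gm16042 (0.94) and Prdm1 (0.93), so that another of the factors was among its nearest. For Crx they included Elfn1 (0.98) and Cdhr1 (0.97), and for Nrl Rabepk (0.98), Tob2 (0.98) and BC027072 (0.98). Rxrg had less close neighbours, Shisa4 (0.90), Akna (0.89) and Klc4 (0.88). Without P3 replicates 4 and 5 the values were 0.93 for Elfn1 and 0.90 for Cdhr1, and 0.93, 0.94 and 0.92 for the Nrl neighbours. Those of Otx2 and Rxrg then lay between 0.89 and 0.94. The highest of so many correlations over 12 libraries can be high for unrelated genes too. The named neighbours of Crx, Nrl and Otx2 changed between the ages in the direction of their factor. Those of Rxrg did not pass the threshold between the ages, with log2 fold changes of 0.19, 0.091 and -0.14.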

How the data were processed

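The authors deposited 1 table per library of expected counts, which estimate reads per gene without scaling; 15.9% of the values were not whole. RSEM, STAR, limma, Trim Galore and FastQC are named with the build mm10, per the submitters' processing notes; versions, annotation and strand setting are not stated there. Libraries were stranded, per the labels' protocols. Expected counts of Crx were not whole in 5 libraries and those of Mef2d in all 12, as arises where RSEM divides reads between genes. In RefSeq, Nr2e3, Thrb, Mef2d and Samd7 overlap another annotated gene.

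Groups came from the age in the labels; replicates were numbered in accession order and pair nothing. The sample names of P9 replicates 5 and 6 are crossed between labels and tables, and both are P9. Counts were rounded, filtered with filterByExpr (34452 genes removed), scaled by TMM and compared by quasi-likelihood F tests (edgeR 4.0.16, R 4.3.3), adjusted by Benjamini-Hochberg over 18638 genes and a threshold of 0.05. The SE is the log2 fold change over the square root of F. Ratios to Crx used a pseudocount of 0.5 counts, and correlations log2 CPM with a prior count of 2. Alternatives were other scalings and filters, DESeq2 1.42.0, limma-voom (limma 3.58.1), a robust fit, an adjusted p under 0.01 and each library left out. On simulated counts for P9 against P3 (18242 genes tested, 200 changed) edgeR recovered 52% of 1.5-fold, 74% of 2-fold, 96% of 4-fold and 96% of 8-fold changes, with 4.22% false calls. In the data a far larger share of genes was called, 51.8%, so these rates may not hold for the calls given here.

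The members and lists were chosen with earlier results of these data known. All 10 factors are named. Of the fate, rod and cone lists the 3 called genes with the smallest adjusted p in each direction are named, others where said. Of Otx2, Crx, Nrl and Rxrg the 3 nearest genes are named. Coordinates and promoters are RefSeq's on GRCm38.p6, the same assembly as mm10. A few genes named by these rules are not reported here.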

Additional observations from a re-analysis of the deposited data

Results flagged for a closer look

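In 38 sets of 6 libraries (10 factors and 9 ratios to Crx, each at 2 ages) 2 values lay apart from the rest by Dixon's criterion for 6 samples, where chance alone gives about 1 in 20. The Nr2e3 level of P9 replicate 2, 1047 CPM, was the lowest of its age, and its gap to the next library took up 0.657 of the range. The log2 ratio of Mef2d to Crx in P3 replicate 3, -1.24, was the highest of its age, with a gap of 0.641 of the range.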

How the results depend on the processing

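All 10 factors kept their direction and passed the threshold in each of the 23 alternative fits (scaling, filter, tool, threshold, each library left out, and P3 replicates 4 and 5 left out, which was added after seeing the data). The log2 fold changes ran from -1.15 to -1.02 for Otx2, -1.50 to -1.36 for Prdm1, -0.65 to -0.54 for Rorb, -1.36 to -1.21 for Rxrg, 0.59 to 0.86 for Crx, 0.47 to 0.72 for Mef2d, 1.12 to 1.57 for Nrl, 0.59 to 0.80 for Nr2e3, 0.84 to 1.07 for Samd7 and 1.06 to 1.26 for Thrb. Counts of genes called stayed within 1.5 times those given. The ratio of Nr2e3 to Crx did not pass in any alternative, and its sign turned without P3 replicate 3, 4 or 6 or P9 replicate 3 or 4; leaving out single libraries gave -0.030 to 0.080, and P3 replicates 4 and 5 together -0.033. The Mef2d ratio ran from -0.13 to -0.083 and the Samd7 ratio from 0.25 to 0.34 with single libraries left out, and the Samd7 ratio was 0.24 without P3 replicates 4 and 5. Fewer libraries give the exact test fewer assignments, and the cause of the lost calls was not tested. No paired analysis was made, because the labels name nothing that links a P3 library to a P9 library.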
